A study of Mus musculus with 12 samples.

Results

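Mex3a+ cells were set against Mex3a- cells within the Lgr5- fraction of mouse colon adenomas. The comparison used 6 of the study's 12 arrays: the 3 labelled Mex3A+ LGR5- and the 3 labelled Mex3A- LGR5-, paired by the mouse number in the sample titles (MKL347, MKL358 and MKL367). The other arrays hold the Lgr5+ counterparts of the same mice. They served to estimate the spread between arrays and to ask whether the Mex3a difference depended on Lgr5 status. All of the mice carry the genotype label ki/+, which the labels do not explain; the labels used here do not state the adenoma model, the ages and how Mex3a and Lgr5 status were read. The sorted input differed between mice: MKL358 gave 500 cells per population, and MKL347 and MKL367 gave 2000. From each population 25 ng of total RNA was amplified and 8 µg of cDNA was labelled, per the labels. Each array is therefore 1 bulk measurement of many cells of 1 mouse, in which fewer cells of a type and less RNA per cell cannot be told apart.

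Mex3a encodes an RNA-binding protein of the cytoplasm with KH domains and a RING finger, and in the normal intestine it marks a slowly dividing subset of the Lgr5+ crypt base cells. Lgr5 is the R-spondin receptor used as the marker of intestinal stem cells and is itself a target of Wnt signalling, the pathway whose activation by loss of Apc starts most intestinal adenomas. The colon epithelium renews from crypt stem cells, whose daughters become absorptive colonocytes or secretory cells, chiefly mucus-producing goblet cells, as they leave the Wnt-rich crypt base.

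Values are log2 signals made by RMA, which corrects the background of the array, normalises across arrays and summarises the probes of a probe set. The deposited values were used as they are, with the brightest probe set for each gene symbol, and 12595 genes passed a filter on low signals (above 4.4 on at least 3 of the 12 arrays). A difference is the mean of Mex3a+ Lgr5- minus Mex3a- Lgr5- on this log2 scale, so 1 unit is a 2-fold change; its standard error (SE) and adjusted p come from limma with the mouse as a term. A gene is called, and described as having risen or fallen, where the Benjamini-Hochberg adjusted p over all genes tested is under 0.05. Array medians lay between 4.86 and 4.92, and the number of arrays limits the precision. Epithelial markers were high in both groups: Epcam lay between 11.44 and 11.77 on the 6 arrays, and Krt8 between 11.11 and 11.56. Of the markers of other cell types, Ptprc, Cd3e, Adgre1, Kdr, Pdgfra and Col1a2 stayed below the filter level on all 6 arrays, whereas the macrophage and neutrophil genes Csf1r (5.77 to 6.28), Tyrobp (5.31 to 7.06), Cd14 (5.21 to 6.86) and S100a9 (6.64 to 9.59), the collagens Col1a1 (6.22 to 6.74) and Col3a1 (4.90 to 6.86), Dcn and the B cell gene Cd79a lay above it on all 6. On the first principal component of these arrays, which held 61.4% of the variance, the Mex3a+ arrays lay between -36.0 and -16.9 and the Mex3a- arrays between 14.6 and 30.8. The second held 20.8% and set both arrays of MKL358 (18.7 and 22.6) apart from the other arrays (-17.2 to -1.18).

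The sorted marker followed its label. In MKL347, MKL358 and MKL367, Mex3a stood at 7.03, 6.78 and 6.91 in Mex3a+ Lgr5- cells and at 5.93, 5.94 and 6.49 in Mex3a- Lgr5- cells. The groups did not overlap, and the difference was 0.79 (SE 0.14, adjusted p = 0.0008), smallest in MKL367. Lgr5 also differed, although both populations were sorted as Lgr5-. It stood at 7.33, 7.03 and 7.50 in Mex3a+ cells and at 5.78, 5.76 and 6.49 in Mex3a- cells, a difference of 1.27 (SE 0.15, adjusted p = 4.9e-05) without overlap. Across the 4 populations the mean Lgr5 level ran from 8.37 ± 0.24 (SD, n = 3) in double positive cells through 8.02 ± 0.06 in Mex3a- Lgr5+ and 7.29 ± 0.24 in Mex3a+ Lgr5- cells to 6.01 ± 0.41 in double negative cells. The Mex3a+ Lgr5- cells thus lay below both Lgr5+ populations and above the double negative cells in Lgr5 transcript. Among Lgr5+ cells the Lgr5 difference by Mex3a status was 0.36; the test of the difference between both settings did not pass (adjusted p = 0.351).

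Mex3a status went with a broad difference in expression among Lgr5- cells, and the larger changes were losses. Of the 12595 genes, 4021 (31.9%) were called, 1366 (10.8%) higher and 2655 (21.1%) lower in Mex3a+ cells. A change of at least 2-fold was seen for 176 of the higher and 350 of the lower genes. Of all called genes, 3984 had the same sign in all 3 mice. The values of the 3 Mex3a+ arrays did not overlap those of the 3 Mex3a- arrays for 4094 genes, 32.5% of those tested, among them 3126 of the called genes. The split depends on scaling: 66.0% of the calls were lower with the deposited values, and 52.6% (1949 of the calls, with 1754 higher) after a further quantile normalisation. The median difference over all genes was -0.025. Without the mouse term 2125 genes were called, all of them also called with it; without MKL347 the count was 2429, and without MKL367 it was 2481.

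The largest falls included genes of mature colonocytes and goblet cells and genes of mucosal defence and the acute phase. Zg16, a lectin secreted with goblet cell mucus, stood at 4.84, 4.28 and 6.96 in Mex3a+ cells of MKL347, MKL358 and MKL367 and at 10.76, 11.08 and 11.44 in Mex3a- cells. This 53.2-fold difference (log2 -5.73, SE 0.42, adjusted p = 2.88e-06) was the largest of all named genes, with the highest Mex3a+ value in MKL367. Gsdmc2, a gasdermin of the colon epithelium, stood at 4.13, 2.85 and 3.18 against 8.86, 8.44 and 8.69 (log2 -5.28, SE 0.23, adjusted p = 1.09e-07). All of its Mex3a+ values lay under the filter level, and with no detection call in the files they do not show whether the transcript was absent. The chloride-bicarbonate exchanger Slc26a3, the main chloride-absorbing transporter of colonocytes, stood at 5.23, 4.42 and 4.48 against 9.76, 8.72 and 8.79 (log2 -4.38, SE 0.21, adjusted p = 1.70e-07). Its Mex3a- values lay far above every Mex3a+ value, with MKL347 highest in both groups.

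Krt20, a keratin of differentiated intestinal cells, ranged widely within Mex3a+ cells. It stood at 8.36, 6.60 and 5.14 in MKL347, MKL358 and MKL367, against 10.72, 10.71 and 9.87 in Mex3a- cells (log2 -3.74, SE 0.43, adjusted p = 4.91e-05). The fall was thus smallest in MKL347 and largest in MKL367. Fabp2, which binds fatty acids in absorptive cells, stood at 4.91, 4.57 and 4.21 against 8.25, 8.38 and 7.13 (log2 -3.36, SE 0.25, adjusted p = 3.36e-06). Muc3, a mucin of the apical membrane, stood at 8.37, 7.19 and 6.09 against 11.25, 11.04 and 10.95 (log2 -3.86, SE 0.36, adjusted p = 1.21e-05). Like Krt20, it was highest in MKL347 among the Mex3a+ arrays, and neither gene overlapped between groups.

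The acute phase genes Saa1 and Saa2 were the least even of the largest falls. Saa1 stood at 6.32, 6.92 and 3.30 in Mex3a+ cells and at 9.96, 10.08 and 9.81 in Mex3a- cells (log2 -4.44, SE 0.85, adjusted p = 0.00169). Saa2 gave 7.68, 8.51 and 4.31 against 10.82, 10.96 and 10.71 (log2 -3.99, SE 0.93, adjusted p = 0.00613). In both, the Mex3a- arrays were close together and MKL367 had by far the lowest Mex3a+ value. Both genes lie within 100 kb of each other and are near copies, so how the probes divide their signal is uncertain, as it is for Gsdmc2 and its neighbours. Clca1, secreted by goblet cells, varied more among Mex3a- cells: 6.92, 8.01 and 9.46, against 3.83, 4.25 and 4.72 in Mex3a+ cells (log2 -3.87, SE 0.64, adjusted p = 0.00064). The other falls among the 15 largest were Aqp4 (a water channel, -3.59), Clca4a (a relative of Clca1, -3.57), Cyp2d34 (a cytochrome P450, -3.51), Klk1 (tissue kallikrein, -3.24), Dmbt1 (a secreted scavenger receptor of the mucosa, -3.17) and Nlrp9b (-3.15). All Mex3a+ values of Cyp2d34 (mean 3.57) lay under the filter level, as did those of Gsdmc2.

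The gains were smaller and came from a mixed set of genes, led by a pair of pancreatic lipase relatives and a Wnt inhibitor. Pnliprp1, a lipase-related protein of the exocrine pancreas, stood at 8.73, 8.17 and 9.02 in Mex3a+ cells and at 4.90, 5.16 and 7.65 in Mex3a- cells (6.67-fold, log2 2.74, SE 0.36, adjusted p = 0.000125). Its neighbour within 100 kb, Pnliprp2, stood at 9.66, 9.73 and 10.23 against 6.81, 6.85 and 8.46 (log2 2.50, SE 0.23, adjusted p = 1.12e-05). For both, the Mex3a- array of MKL367 was well above those of the other mice. Apcdd1, a membrane protein that inhibits Wnt signalling and is induced by it, stood at 9.72, 9.59 and 10.03 against 6.87, 6.60 and 8.15 (log2 2.58, SE 0.19, adjusted p = 2.74e-06). Plagl1, an imprinted zinc finger transcription factor, stood at 9.03, 9.03 and 9.77 against 6.73, 6.64 and 8.02 (log2 2.15, SE 0.13, adjusted p = 5.23e-07). Vim, the intermediate filament vimentin, stood at 10.73, 9.84 and 10.52 against 8.32, 7.56 and 8.94 (log2 2.09, SE 0.14, adjusted p = 1.77e-06). None of these 5 genes overlapped between groups.

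The metallothioneins Mt4 and Mt3, metal-binding proteins encoded within 100 kb of each other, were both among the 15 largest rises. Mt4 stood at 9.12, 9.48 and 10.37 against 6.44, 6.89 and 9.07 (log2 2.19, SE 0.28, adjusted p = 0.000102), so that the lowest Mex3a+ value and the highest Mex3a- value were nearly equal. It was the only gene of these 30 whose call was lost without the mouse term (adjusted p = 0.0737; range over all settings 4.28e-05 to 0.0737). Mt3 stood at 9.74, 9.59 and 9.98 against 7.01, 7.80 and 8.43 (log2 2.02, SE 0.18, adjusted p = 9e-06). The remaining rises were Adam12 (a membrane metalloproteinase, 2.44), Rbms3 (an RNA-binding protein, 2.24), Npnt (nephronectin, an integrin ligand of the extracellular matrix, 2.23), Erich3 (2.17), Tubb4a (a beta-tubulin, 2.16), Alb (albumin, 2.13), Tesc (tescalcin, a calcium-binding protein, 2.06) and Ramp3 (a partner of the calcitonin-type receptors, 2.04).

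Of these 30 genes, the 15 rises spanned 4.06-fold to 6.67-fold and the 15 falls 8.88-fold to 53.2-fold. All 15 rises had their smallest difference in MKL367: the median over them was 2.68 in MKL347, 2.59 in MKL358 and 1.58 in MKL367. The falls ran otherwise, with medians of -3.38, -3.76 and -4.31 in the same order of mice. Leaving out any single mouse or any single array kept the call of each of the 30. These values are those of the brightest probe set of each gene. Other probe sets of some gave other values: -3.39 and -0.11 (the latter not called) for Klk1, -0.34 for Saa2, 1.22 and 0.30 (the latter not called) for Erich3, 0.18 (not called) to 1.82 for Npnt, 0.47 to 1.73 for Rbms3 and 0.59 for Tesc.

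**Figure D1:**
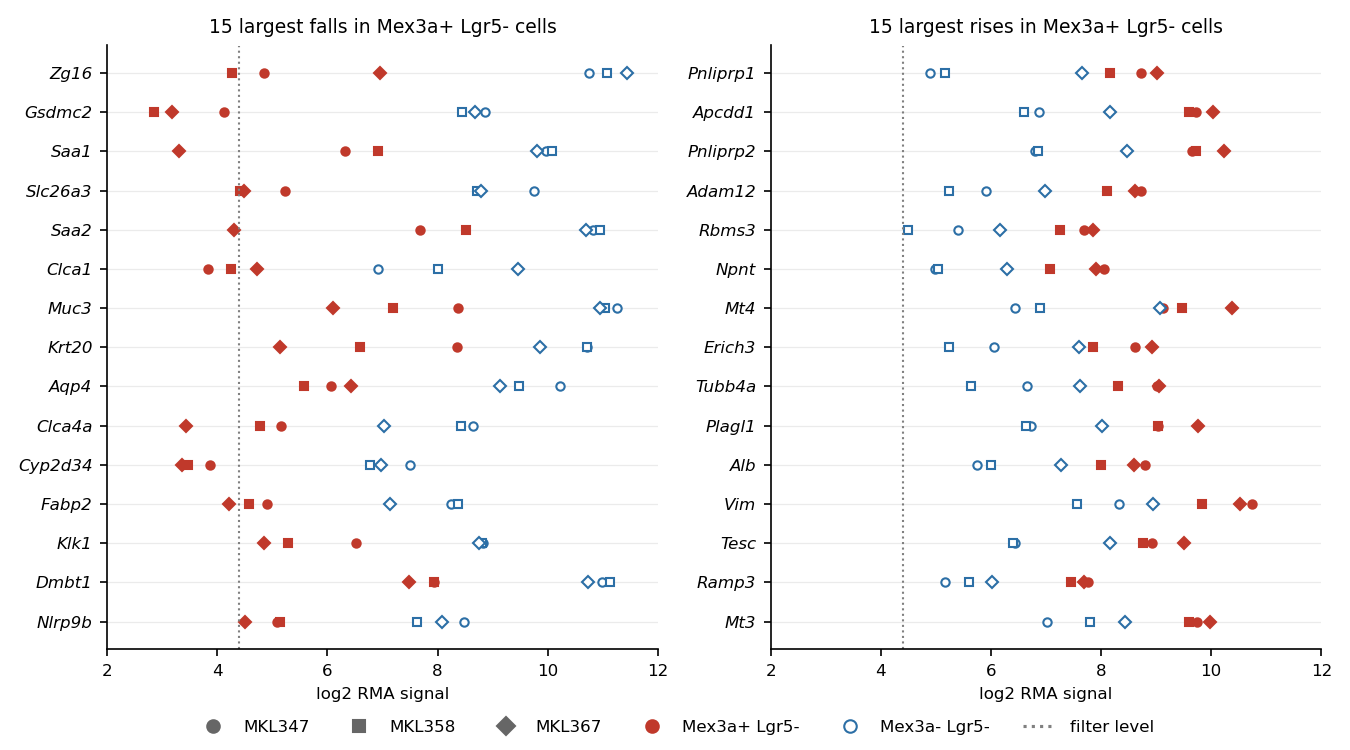
Log2 RMA signal of the 15 largest falls (left) and 15 largest rises (right) on each of the 6 Lgr5- arrays; filled symbols are Mex3a+ cells, open symbols Mex3a- cells, the symbol shape gives the mouse and the dotted line the filter level of 4.4. No gene overlaps between groups, and among the rises the open diamond of MKL367 lies closest to the filled symbols.

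The promoters of the 30 genes were searched for letters that Wnt, colonocyte and hepatocyte-type transcription factors are known to prefer, since members of these programmes lead the lists. A promoter here is the 250 bases before the annotated start, from RefSeq on GRCm38.p6, and 21 of the 30 genes had one listed. The searches, on both strands, were CTTTGAT (Tcf/Lef), CCATAAA or CAATAAA (Cdx) and CAAAGTC (Hnf4). The reverse of the Tcf/Lef letters and the Hnf4 letters share the run CAAAG, so these matches can overlap. Matches were found for 4 genes, printed 5′ to 3′ on the strand of the gene with the match in capitals. They show a Cdx match in a gene that fell (Fabp2, chr3:122894822-122895071, plus strand), Hnf4 matches in a pair of genes that rose (Alb, chr5:90460620-90460869, plus strand, and Pnliprp2, chr19:58759473-58759722, plus strand) and a Tcf/Lef match in a gene that rose (Rbms3, 1 of 2 listed promoters, chr9:117629914-117630163, minus strand).
Fabp2: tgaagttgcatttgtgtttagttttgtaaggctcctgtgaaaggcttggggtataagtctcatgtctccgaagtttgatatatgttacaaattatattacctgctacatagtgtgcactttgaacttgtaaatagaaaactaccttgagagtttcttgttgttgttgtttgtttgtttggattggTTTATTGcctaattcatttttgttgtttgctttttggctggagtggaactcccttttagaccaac
Alb: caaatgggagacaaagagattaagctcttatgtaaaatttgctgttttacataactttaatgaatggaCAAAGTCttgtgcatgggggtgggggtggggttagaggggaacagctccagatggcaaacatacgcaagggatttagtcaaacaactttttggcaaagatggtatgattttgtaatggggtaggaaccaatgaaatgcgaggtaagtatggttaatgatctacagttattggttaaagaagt
Pnliprp2: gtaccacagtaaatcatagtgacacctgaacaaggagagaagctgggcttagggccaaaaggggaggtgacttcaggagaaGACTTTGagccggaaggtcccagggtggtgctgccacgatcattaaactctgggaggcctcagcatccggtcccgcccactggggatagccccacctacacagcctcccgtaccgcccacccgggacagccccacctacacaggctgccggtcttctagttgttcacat
Rbms3: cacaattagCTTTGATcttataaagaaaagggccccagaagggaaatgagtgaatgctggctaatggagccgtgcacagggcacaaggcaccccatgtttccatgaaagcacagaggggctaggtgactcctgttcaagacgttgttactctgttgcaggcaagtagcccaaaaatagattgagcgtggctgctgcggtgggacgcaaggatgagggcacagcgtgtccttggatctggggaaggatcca
The first base of the match lies 65 bases before the start in Fabp2, 182 in Alb, 169 in Pnliprp2 and 241 in Rbms3. Among all 27025 genes with a listed promoter, 3.23% held the Tcf/Lef letters, 6.74% the Cdx letters and 3.80% the Hnf4 letters. In the 10079 tested genes with a listed promoter the shares were 2.64%, 4.08% and 3.50%. Of the genes that rose at least 2-fold, 130 had a listed promoter, and the shares were 3.85%, 3.85% and 4.62%. Of those that fell at least 2-fold, 276 had a listed promoter, and the shares were 3.26%, 5.07% and 6.16%. A match describes the letters only.

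Absorptive genes fell almost as a block. Of 31 tested genes of colonocyte absorption and transport, 27 fell, 2 rose and 2 did not pass, against 21.1% of all genes that fell. The median difference of these 31 genes was -1.28, and -1.19 over all 35 members on the array. A gene can pass the filter through Mex3a- arrays alone, and 25 of the 35 lay above its level on all 6 Lgr5- arrays. Ceacam20, a cell surface protein of the brush border, stood at 5.48, 4.98 and 4.58 against 8.61, 7.99 and 7.68 (log2 -3.08, SE 0.16, adjusted p = 2.79e-07). The sulfotransferase Sult1b1 fell by 2.88, Hsd11b2, which protects the mineralocorticoid receptor from glucocorticoids, by 2.75, and the carbonic anhydrase Car1 by 2.57. Guca2a, the precursor of guanylin, fell by 1.56 and the carbonic anhydrase Car4 by 1.05 on its brightest probe set and by 3.39 on the other (adjusted p = 1.28e-05). Against this direction, the sodium-hydrogen exchanger Slc9a3 rose (0.78, adjusted p = 0.00026), a call that was lost without the mouse term (adjusted p = 0.276; range over all settings 8.43e-05 to 0.276). Scnn1g, a subunit of the epithelial sodium channel, was the other that rose (0.36); its call was lost without any one of the 3 mice.

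Brush border genes, whose products build the microvilli of absorptive cells, fell in 18 of 21 tested cases, with none higher and a median of -0.77. The shares of all genes were 21.1% lower and 10.8% higher. Cdhr5, a protocadherin that links microvilli at their tips, stood at 8.07, 8.05 and 7.43 against 10.16, 10.10 and 9.76 (log2 -2.16, SE 0.09, adjusted p = 8.64e-08). Its partner Cdhr2 fell by 2.57. The actin bundler Vil1 fell by 1.16, the motor Myo1d by 1.12 and the membrane-actin linker Ezr by 0.73. Cdhr5 and Cdhr2 did not overlap between groups, and MKL367 had the lowest value of both in either group.

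Where 21.1% of all genes fell, goblet cell genes fell in 24 of 25 tested cases, with a median of -1.13. Foxa3 (0.09) did not pass. Genes of secreted products and of factors that specify the lineage were both among the falls. Atoh1, the transcription factor required for all secretory cells, stood at 7.25, 6.50 and 6.43 against 8.23, 7.57 and 7.75 (log2 -1.12, SE 0.20, adjusted p = 0.0011). Spdef, which drives goblet maturation, stood at 7.16, 7.32 and 6.66 against 8.18, 8.19 and 8.35 (log2 -1.19, SE 0.19, adjusted p = 0.000404). Each Mex3a+ array was below each Mex3a- array for both factors. Creb3l1, a transcription factor of secretory cells, fell by 1.59, the mucus protein Fcgbp by 2.26, Retnlb by 1.84 and the disulfide isomerase Agr2 by 1.08. The glycosyltransferase Galnt12 fell by 1.33 and the calpain Capn9 by 1.35.

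The other secretory lineages are set here beside the 31.9% of all genes that were called. Of 16 enteroendocrine genes 2 rose, 1 fell and 13 did not pass, with a median of -0.09 (0.08 without MKL358); Chga, the granule protein that marks the lineage, differed by -0.18 (adjusted p = 0.376). Each of the 3 calls (Ddc, Isl1 and Cpe) was lost without at least 1 mouse. Among 10 tuft cell genes 1 rose, 3 fell and 6 did not pass (median -0.07; 0.06 with the filter at the 60th percentile and 0.01 without MKL347). The defining tuft cell channel Trpm5 differed by -0.28 (adjusted p = 0.149) on its brightest probe set and by -0.89 (adjusted p = 0.0379) on another, and the 4 tuft calls (Avil, Sh2d6, Alox5ap and Dclk1) were each lost without MKL347 or MKL367. None of 7 Paneth and deep crypt secretory genes was called (median -0.08; 0.06 without MKL367), with Lyz1, Paneth cell lysozyme, at a difference of -0.08 and Reg4 at -0.34.

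Genes of mucosal defence split. Of 19 tested, 11 fell and 3 rose, beside 21.1% and 10.8% of all genes. The median was -1.18, but -0.83 with array weights, -0.87 without MKL358 and -0.49 over all 23 members on the array. The falls included the antimicrobial lectin Reg3b (6.24, 7.41 and 7.83 against 9.68, 10.77 and 10.22; log2 -3.06, SE 0.40, adjusted p = 0.000116), Gsdmc (-3.02) and the immunoglobulin transporter Pigr (-1.25). The gasdermins moved both ways: Gsdma stood at 7.96, 8.02 and 8.73 against 5.85, 5.93 and 7.23 and rose by 1.90 (SE 0.12, adjusted p = 1.17e-06). Lcn2, the iron-binding lipocalin of inflamed epithelium, rose as well, from 8.42, 8.47 and 9.59 to 10.90, 10.002 and 10.70 (log2 1.71, SE 0.22, adjusted p = 0.000116).

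**Figure D2:**
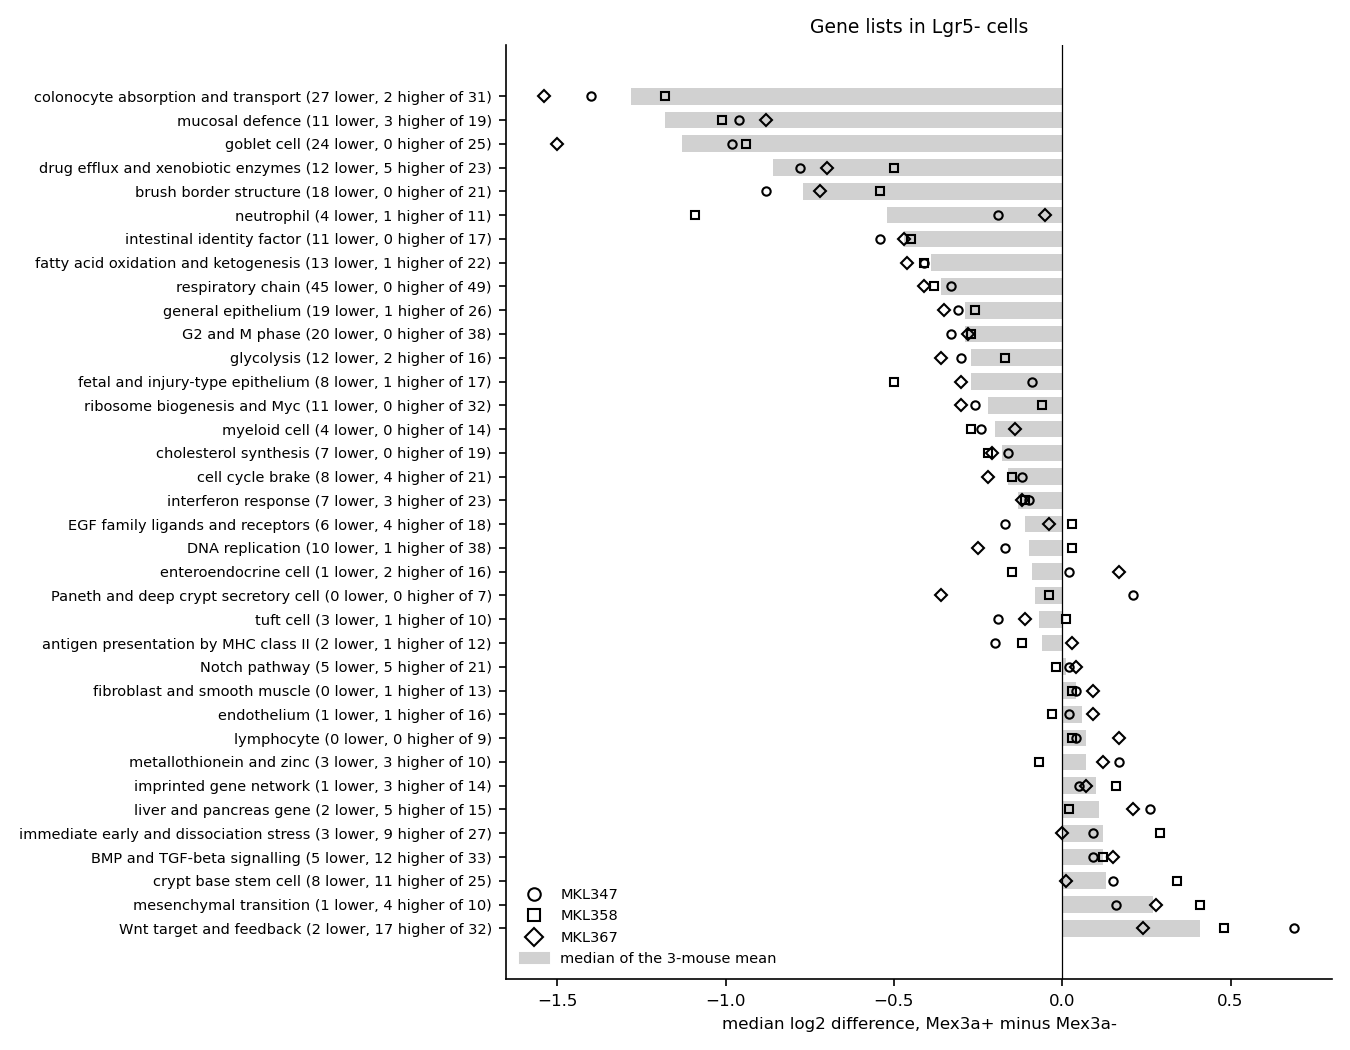
Median log2 difference (Mex3a+ minus Mex3a-) over the tested members of each gene list in Lgr5- cells; bars are the median of the 3-mouse mean differences, symbols the median within each mouse, and each label gives the counts called lower and higher. The colonocyte bar reaches -1.28 and the Wnt bar 0.41; the neutrophil symbols lie far apart (-0.19, -1.09 and -0.05 in MKL347, MKL358 and MKL367).

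Wnt pathway genes were the list that rose most. Of 32 tested targets and feedback genes 17 rose, 2 fell and 13 did not pass, against 10.8% of all genes that rose, and the median was 0.41 (0.69, 0.48 and 0.24 in MKL347, MKL358 and MKL367). Among negative feedback genes, Axin2, a scaffold of the beta-catenin destruction complex and the most widely used Wnt reporter, stood at 9.55, 9.56 and 9.67 against 8.78, 8.79 and 9.14 (log2 0.69, SE 0.06, adjusted p = 1.25e-05). Notum, which inactivates Wnt ligands by removing their lipid, stood at 9.0, 8.45 and 9.05 against 7.26, 6.63 and 8.06 (log2 1.52, SE 0.13, adjusted p = 6.23e-06). Both separated the groups, with the highest Mex3a- value in MKL367.

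Further inhibitors and related genes rose as well. The intracellular inhibitor Nkd1 rose by 1.29, and Znrf3 and Rnf43, the ligases that remove Wnt receptors from the surface, by 1.02 and 0.78. The secreted Dickkopf proteins Dkk2 and Dkk3 rose by 1.22 and 1.42. Wif1, a secreted Wnt-binding inhibitor, stood at 9.74, 8.96 and 9.77 against 7.89, 6.58 and 8.77 (log2 1.74, SE 0.22), called with the mouse term but not without it (adjusted p = 0.0615; range over all settings 4.76e-05 to 0.0615). The ligand Wnt10a rose by 2.01.

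Among effectors and targets, Lef1, a transcription factor that binds beta-catenin, stood at 7.54, 6.77 and 7.56 against 5.32, 4.42 and 6.19 (log2 1.98, SE 0.19, adjusted p = 1.49e-05). Prox1, a homeobox factor known as a Wnt target in colon tumours, stood at 10.40, 10.08 and 10.54 against 8.53, 8.12 and 9.25 (log2 1.71, SE 0.12, adjusted p = 1.71e-06). Every Mex3a+ array exceeded every Mex3a- array for both. The receptor Tnfrsf19 rose by 1.14. The growth-related targets Myc (-0.22, adjusted p = 0.092) and Ccnd1, a cyclin (-0.12, adjusted p = 0.199), did not pass on their brightest probe sets (of the others for Ccnd1, 1 was called lower, at -0.35, and 1 was not, at -0.21), while the claudin Cldn2 fell by 0.50 and the Notch ligand Jag1 by 0.44. The call of Jag1 was lost without MKL347 and without MKL367.

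The crypt base stem cell genes divided: 11 of 25 rose, 8 fell and 6 did not pass (median 0.13). Of all genes, 10.8% rose and 21.1% fell. Besides Lgr5, Axin2, Znrf3, Rnf43 and Tnfrsf19, which are also Wnt targets, Smoc2, a secreted matrix protein of Lgr5+ cells, rose from 7.90, 7.89 and 7.89 to 8.97, 8.44 and 8.46 (log2 0.73, SE 0.11, adjusted p = 0.000421). The RNA-binding protein Msi1 rose by 0.88 (0.47 and, not called, 0.24 on other probe sets) and the kinase Cdk6 by 0.69. Ascl2, the transcription factor that sets the stem cell state, stood at 6.92, 7.09 and 6.99 against 7.10, 7.03 and 7.21 and did not pass (log2 -0.11, SE 0.10, adjusted p = 0.45). Its values overlapped between groups. Sox9 (0.09, adjusted p = 0.379) and Ephb3 (0.00, adjusted p = 0.99) did not pass either.

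Among the falls of that list, Aqp4 and the tetraspanin Tspan8 (-1.36) were the largest. Aqp4 stood at 6.07, 5.57 and 6.42 against 10.22, 9.48 and 9.14 (log2 -3.59, SE 0.28, adjusted p = 3.73e-06). The surface proteins Prom1 (-0.48), Cd44 (-0.54) and Lrig1 (-0.46) were called with the mouse term only (without it, adjusted p = 0.0513, 0.0831 and 0.372; ranges over all settings 0.00119 to 0.0513, 0.00321 to 0.0935 and 0.0032 to 0.372). Without the mouse term 2 of this list fell, without MKL347 or MKL367 5, and 4 when the Mex3a+ Lgr5- array of MKL367 was dropped; between 9 and 13 rose over all settings.

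**Figure D3:**
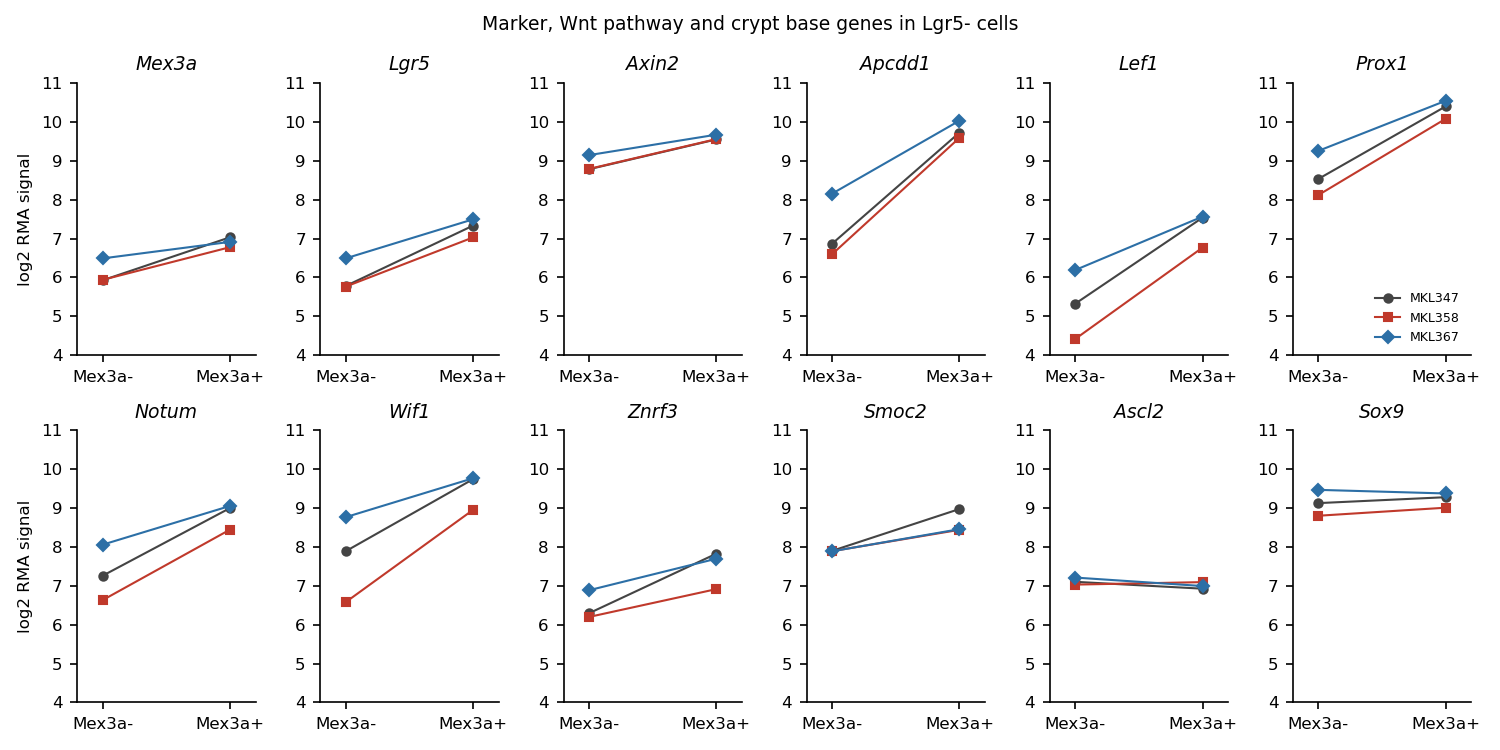
Log2 RMA signal of the sorted markers and of Wnt pathway and crypt base genes in Mex3a- and Mex3a+ Lgr5- cells, 1 line per mouse. The lines climb for every gene shown except Ascl2 and Sox9, whose lines cross or stay near level, and MKL367 starts highest for Apcdd1, Lef1 and Prox1.

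Intestinal identity factors fell in 11 of 17 tested cases and none rose (median -0.47), beside the 21.1% of all genes that fell. Without the mouse term 7 fell. Cdx1 and Cdx2 are the homeobox factors that specify intestinal epithelium. Cdx2 stood at 7.26, 6.72 and 6.78 against 8.92, 8.14 and 7.93 (log2 -1.41, SE 0.13, adjusted p = 1.18e-05), and Cdx1 at 8.18, 8.60 and 7.77 against 9.64, 9.60 and 9.23 (log2 -1.31, SE 0.14, adjusted p = 3.49e-05). Klf4, a factor of differentiating and goblet cells, stood at 7.82, 8.59 and 7.72 against 9.26, 9.46 and 8.92 (log2 -1.17, SE 0.10, adjusted p = 7.41e-06). None of the 3 overlapped between groups. Hnf4a, the nuclear receptor that maintains enterocyte genes, fell by 0.77. Of 26 general epithelial genes 19 fell and 1 rose (median -0.29; 12 fell without the mouse term). The tetraspanin Tspan1 fell by 1.67, and Epcam by 0.22 and Krt8 by 0.26 from very high levels. The calls of Epcam and Krt8 were lost in some settings (adjusted p up to 0.0762 and 0.0549). Another probe set of Epcam differed by -0.07 (adjusted p = 0.588), and another of Krt8 by -0.31 (adjusted p = 0.000229). On these 26 genes together the mean level lay between 9.27 and 9.53 in Mex3a+ cells and between 9.77 and 9.90 in Mex3a- cells.

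Fetal and injury-type epithelial genes, which return in regenerating or revival-state intestine, fell in 8 of 17 tested cases with 1 rise (median -0.27). Of all genes, 21.1% fell and 10.8% rose. Without the mouse term 3 of the list fell. Emp1, a membrane protein of the epithelium, stood at 5.86, 6.73 and 4.11 against 8.29, 8.03 and 7.75 (log2 -2.46, SE 0.31, adjusted p = 9.62e-05). Anxa1 fell by 1.35 and Il1rn, the interleukin-1 receptor antagonist, by 1.40. The exception was Ccn1, a YAP target, which rose by 1.15. Of 10 genes of mesenchymal transition, with Vim the largest, 4 rose and 1 fell (median 0.27).

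Of the proliferation genes, part of the G2 and M phase list was lower, modestly and unevenly, where 21.1% of all genes fell. Of 38 tested G2 and M phase genes, 20 fell, none rose and 18 did not pass (median -0.29). Birc5, the chromosomal passenger protein survivin, stood at 8.34, 8.18 and 8.16 against 8.85, 8.73 and 8.78 (log2 -0.56, SE 0.07, adjusted p = 6.6e-05), and the centromeric histone Cenpa at 7.61, 7.39 and 7.59 against 8.29, 8.20 and 8.34 (log2 -0.75, SE 0.09, adjusted p = 8.06e-05). The groups did not overlap for either on these probe sets. Another probe set of Cenpa differed by -0.18 (adjusted p = 0.243) and was not called. Mki67, the proliferation antigen, fell by 0.39 (adjusted p = 0.00667), a call lost without MKL347 (adjusted p = 0.123; range over all settings 0.00416 to 0.123). The mitotic kinase Cdk1 (0.01, adjusted p = 0.941) and topoisomerase Top2a (0.13, adjusted p = 0.404) did not pass. Without the mouse term 11 of the list fell, without MKL347 11, without MKL367 12 and after further quantile normalisation 14.

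Genes of DNA replication were mostly not called: 10 of 38 fell and 1 rose (median -0.10), where 21.1% of all genes fell and 10.8% rose. Tk1, thymidine kinase, fell by 0.67, while Pcna, the sliding clamp, differed by -0.01 (adjusted p = 0.923). That count of falls ranged from 1 (without the mouse term) through 2 (without MKL347) and 3 (without MKL367 or after further quantile normalisation) to 15. The 15 fell when the Mex3a- Lgr5- array of MKL358 was left out. Without any other single Lgr5- array the count lay between 2 and 6. Cell cycle brakes went both ways, with 4 of 21 higher and 8 lower (median -0.16; 2 lower without the mouse term, 4 without MKL347 or MKL367, 4 or 5 without 1 Lgr5- array of either; 2 higher without the mouse term or MKL367). Cdkn1c, the imprinted inhibitor p57, stood at 9.49, 8.71 and 9.25 against 8.03, 7.36 and 8.24 (log2 1.27, SE 0.16, adjusted p = 9.58e-05), and Trp53inp1 rose by 0.88, whereas Txnip fell by 0.71 and Tob1 by 0.73. Polr1d, a subunit of the polymerases for ribosomal and transfer RNA, fell by 0.60. Of 32 genes of ribosome biogenesis 11 fell and none rose (median -0.22, and -0.10 after further quantile normalisation). That count was 6 without MKL347, 5 without MKL367, 18 without MKL358 and 21 when only the Mex3a- Lgr5- array of MKL358 was left out.

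Genes of energy metabolism were mostly lower in Mex3a+ cells. Where 21.1% of all genes fell and 10.8% rose, 45 of 49 tested nuclear genes of the respiratory chain fell and none rose. Their median was -0.36 (-0.33, -0.38 and -0.41 in MKL347, MKL358 and MKL367), and -0.25 after further quantile normalisation. Between 36 and 46 fell over all settings. By complex, 22 of 25 genes of complex I, 4 of 4 of complex II, 5 of 6 of complex III, 8 of 8 of complex IV and 5 of 5 of complex V fell, as did Cycs, the gene of cytochrome c. Ndufa8, a complex I subunit, stood at 9.60, 9.58 and 9.39 against 10.20, 10.24 and 10.17 (log2 -0.68, SE 0.06, adjusted p = 8.36e-06). Its values were tight within each group and well apart. The complex II anchor Sdhd stood at 5.70, 5.90 and 5.57 against 6.65, 6.47 and 6.45 (log2 -0.80, SE 0.12, adjusted p = 0.000256). The ATP synthase subunit Atp5d fell by 0.50 and Cox8a, of complex IV, by 0.46. Ndufv2 was level (0.02, adjusted p = 0.791).

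**Figure D4:**
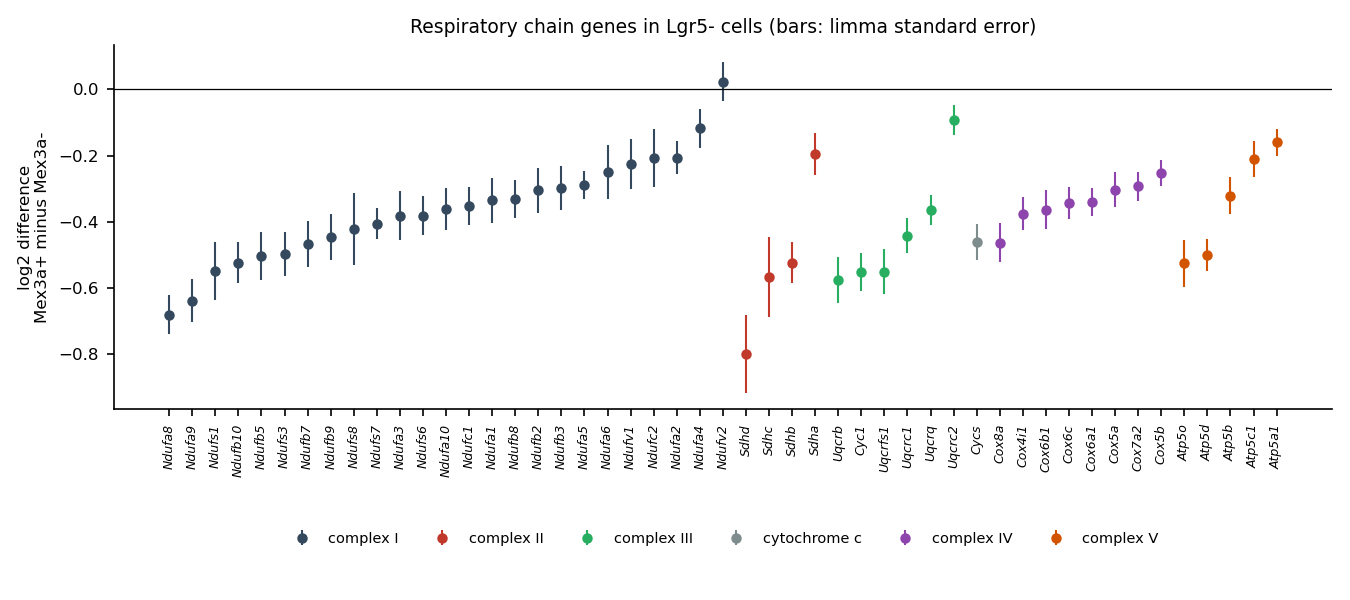
Log2 difference (Mex3a+ minus Mex3a- Lgr5- cells) of each tested respiratory chain gene, grouped by complex; points are the 3-mouse mean difference and bars the standard error from limma. All but Ndufv2 (0.02) lie below 0, and the lowest is Sdhd (-0.80).

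Fatty acid oxidation and ketogenesis fell in 13 of 22 tested genes, with 1 higher (median -0.39), where 21.1% of all genes fell and 10.8% rose. Cpt1a, the enzyme that commits fatty acids to mitochondrial import, stood at 6.67, 6.80 and 6.38 against 7.48, 7.74 and 7.20 (log2 -0.85, SE 0.10, adjusted p = 4.22e-05). The coactivator Ppargc1b fell by 1.39 and the nuclear receptor Pparg by 1.07. In glycolysis 12 of 16 genes fell and 2 rose (median -0.27; 8 fell without the mouse term, without MKL347, without MKL367 or after quantile normalisation). Hexokinases Hk1 and Hk2 fell by 0.95 and 0.77, and Ldha, lactate dehydrogenase, by 0.31. The aldolase isoform Aldoc went the other way, from 6.80, 7.06 and 7.43 to 8.34, 8.05 and 8.21 (log2 1.10, SE 0.15, adjusted p = 0.000164). Cholesterol synthesis genes fell in 7 of 19 cases and none rose (median -0.18; 3 fell without the mouse term and 4 without MKL367), with the epoxidase Sqle at -0.67.

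Of 23 drug efflux and xenobiotic genes 12 fell and 5 rose, where 21.1% of all genes fell and 10.8% rose. The median was -0.86, and -0.28 over all 29 members on the array. With the filter at the 60th percentile 6 fell and the median was -0.11, and 3 rose without the mouse term or MKL347. Abcc3, an efflux pump of conjugates, stood at 5.44, 6.02 and 5.20 against 7.52, 7.64 and 7.53 (log2 -2.01, SE 0.16, adjusted p = 4.63e-06). Abcb1a, a P-glycoprotein, stood at 6.06, 5.78 and 5.43 against 7.54, 7.34 and 6.49 (log2 -1.37, SE 0.15, adjusted p = 3.54e-05). Abcg2 fell by 1.31, with all Mex3a+ values (3.66, 3.78 and 3.66) under the filter level. The related pumps Abcc2 and Abcc5 rose by 1.38 and 0.63; the other probe sets of Abcc5 gave -0.04 to 1.06. Of 15 liver and pancreas genes 5 rose and 2 fell (median 0.11; 3 rose without the mouse term, without MKL347 or MKL358, or without either Lgr5- array of MKL347 or the Mex3a+ Lgr5- array of MKL367); beside the lipases and Alb, Rnase1 rose by 0.64 and Afp by 0.29, Ttr, transthyretin, fell by 0.77 and Cela1, an elastase, by 0.34. Of 10 metallothionein and zinc genes 3 rose and 3 fell (median 0.07): beside Mt3 and Mt4, the zinc transporter Slc30a2 rose by 1.18, while Mt1 did not pass (0.18, adjusted p = 0.129) and Slc39a5 fell by 0.88. The median of this list was -0.02 with the mean of all probe sets, 0.0 without MKL347 and -0.04 over all 11 members on the array.

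Among signalling lists, BMP and TGF-beta genes rose in 12 and fell in 5 of 33 cases (median 0.12). Of all genes, 10.8% rose and 21.1% fell. Without the mouse term 3 of the list rose, and 7 without MKL347 or without the Mex3a+ Lgr5- array of MKL347 or MKL358. Without MKL367 2 fell. Ltbp1, which anchors latent TGF-beta in the matrix, stood at 7.01, 5.96 and 6.53 against 4.17, 4.60 and 4.94 (log2 1.93, SE 0.26, adjusted p = 0.000147), and its relative Ltbp3 rose by 0.87. The ligand gene Bmp8b fell by 0.66, while its other probe set, at -0.23, was not called. Of 21 Notch pathway genes 5 rose and 5 fell, beside the same shares of all genes. Their median was 0.01, with a sign that depended on the filter and the scaling. Without MKL347 2 rose and 2 fell. Notch1 rose by 0.59 (0.30 and not called on another probe set) and Notch4 fell by 0.92. The target Hes1 did not pass (-0.06, adjusted p = 0.779). Of 18 EGF family genes 4 rose and 6 fell (median -0.11, above 0 after quantile normalisation; 1 rose and 2 fell without the mouse term, and 2 rose without any 1 mouse). The receptor regulator Lrig3 fell by 1.31 (-1.21 and, not called, -0.29 on other probe sets). The result for Egfr, the receptor itself, depends on the probe set. Its brightest did not pass (-0.12, adjusted p = 0.296), 3 others were called lower (-1.0 to -0.65) and another tested was not (-0.06). Of 14 imprinted genes 3 rose and 1 fell (median 0.10): Plagl1, Cdkn1c and the amino acid transporter Slc38a4 (1.17) rose, and Phlda2 fell by 0.54, while Igf2 did not pass (0.13, adjusted p = 0.346).

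Immediate early and dissociation stress genes, which respond to handling of the tissue, rose in 9 and fell in 3 of 27 cases (median 0.12). Of all genes, 10.8% rose and 21.1% fell. Without the mouse term 4 of the list rose, without MKL358 5 and after quantile normalisation 14. The heat shock protein Hspb1 stood at 9.46, 9.62 and 10.23 against 7.55, 8.04 and 9.12 (log2 1.54, SE 0.14, adjusted p = 9e-06). Atf3, a stress-induced transcription factor, rose by 1.04 and Jun by 0.72. Interferon response genes fell in 7 and rose in 3 of 23 cases (median -0.13), beside 21.1% and 10.8% of all genes. Oasl2 fell by 1.80 and Irf7, a factor that drives interferon genes, by 0.99. The RNA sensor gene Ddx58 rose by 0.94 on its brightest probe set, while its others, at 0.28 and 0.22, were not called. None of the list rose without the mouse term. Of 12 MHC class II presentation genes 2 fell and 1 rose (median -0.06), near the same 21.1% and 10.8% of all genes. The lysosomal protease Ctss fell by 1.90 and the thiol reductase Ifi30 by 1.30, while H2-Eb1, a class II chain, did not pass (-0.42).

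Markers of other cell types included genes below and well above the filter level. Of 13 fibroblast and smooth muscle genes 1 rose (median 0.04), of 16 endothelial genes 1 rose and 1 fell (median 0.06), and of 9 lymphocyte genes none was called (median 0.07). The endothelial rise was Flt1, a VEGF receptor (1.19), while Kdr was below the filter level on all 6 arrays. Of 14 myeloid genes 4 fell (median -0.20) and of 11 neutrophil genes 4 fell and 1 rose (median -0.52; -0.22 over all 16 members on the array), beside 21.1% of all genes that fell; both counts depended on MKL358. The mean level of the neutrophil list was 4.86, 5.20 and 4.69 in Mex3a+ cells and 4.96, 5.99 and 4.84 in Mex3a- cells, and that of the myeloid list ran from 4.93 to 4.98 and from 5.08 to 5.35. S100a8, a granulocyte calcium-binding protein, stood at 4.75, 6.42 and 4.12 against 5.28, 8.29 and 4.88, and its partner S100a9 at 6.91, 7.89 and 6.64 against 7.09, 9.59 and 7.03. Both were highest in MKL358 in either group. Without MKL358 no neutrophil gene and 1 myeloid gene was called lower. The neutrophil count was also 0 without the mouse term and when the Mex3a+ Lgr5- array of MKL358 or MKL367 was dropped, and 1 without MKL367 or the Mex3a- Lgr5- array of MKL358. The myeloid count was 1 without the mouse term, without either Lgr5- array of MKL358 or without the Mex3a- Lgr5- array of MKL347, and 2 without MKL347. The part of these cells in the falls of Saa1, Saa2 and other mucosal defence genes was not tested. The log2 difference between 3′ and 5′ control probes, a sign of RNA quality, was -0.60, -0.61 and -0.67 for actin in Mex3a+ cells and -0.65, -0.60 and -0.69 in Mex3a- cells. For pyruvate carboxylase it was 0.14, 0.27 and 0.28 against 0.45, 0.20 and 0.50, lower in Mex3a+ cells of MKL347 and MKL367. The part of this difference in the results was not tested.

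Whether the Mex3a difference was particular to Lgr5- cells was asked with the interaction in the same fit. No gene of 12595 (0%) passed; 1078 had an unadjusted p under 0.05. The smallest adjusted p was 0.088, for Ggh, a folate-processing hydrolase, named here after its values were seen. Ggh stood at 4.63, 4.35 and 4.35 in Mex3a+ Lgr5- cells and at 6.23, 5.97 and 5.63 in Mex3a- Lgr5- cells; its difference was -1.50 there and -0.41 among Lgr5+ cells. Data were simulated with 200 changed genes and independent noise. On them the interaction test recovered 83.6% of changes of 1 log2 unit and 23.9% of those of 0.5. In the real data larger differences did not pass either, such as Clca1 at -2.02 (adjusted p = 0.57) and Car1 at 1.31 (adjusted p = 0.351). Differences of this size between both settings, and smaller ones, could thus be missed.

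In Lgr5+ cells 2772 genes were called by Mex3a status. Of the genes called in Lgr5- cells, 3873 of 4021 had the same sign in Lgr5+ cells; 825 of the 1366 higher and 1397 of the 2655 lower ones were also called there. Across all 12595 genes, which are not independent replicates, the differences of both settings correlated at 0.893; they share mice but no array. All 15 largest rises were also called in Lgr5+ cells (1.42 to 2.59), and 14 of the 15 largest falls (-4.65 to -1.84 over the 15). The exception was Clca1, at -1.84 in Lgr5+ cells (adjusted p = 0.0593) and -3.87 in Lgr5- cells; the test of this difference did not pass (adjusted p = 0.57).

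**Figure D5:**
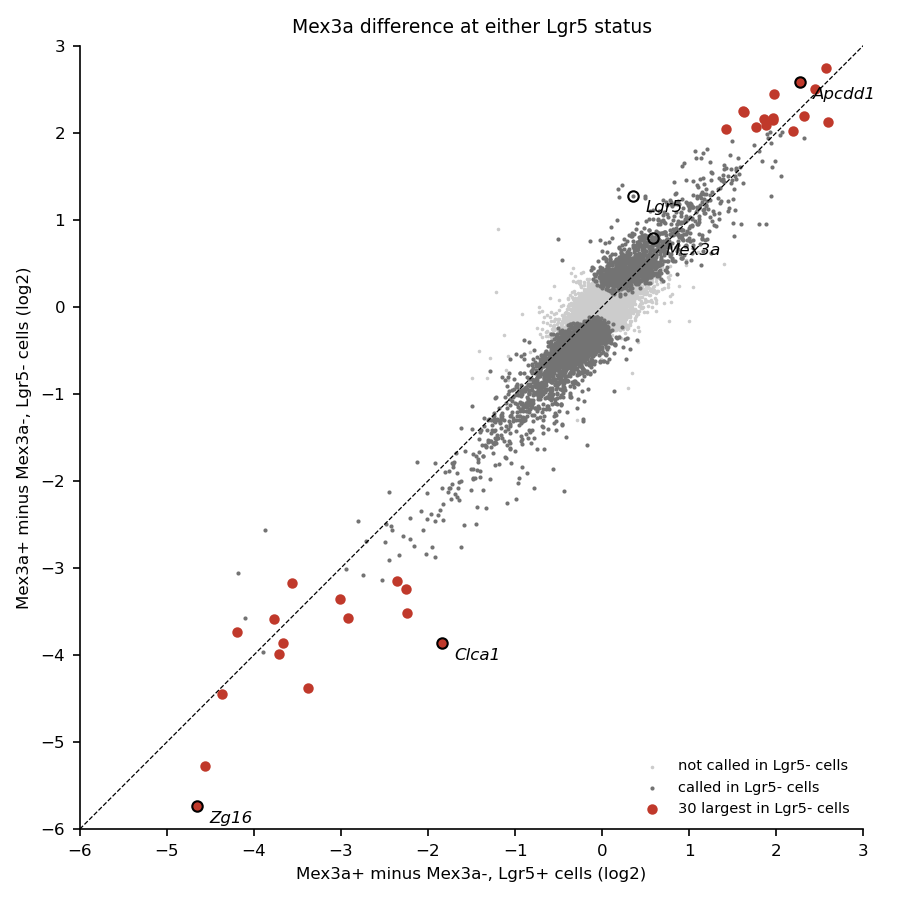
Log2 difference by Mex3a status (Mex3a+ minus Mex3a-) in Lgr5+ cells (horizontal) against Lgr5- cells (vertical) for every gene tested; dark points are called in Lgr5- cells, red points are the 30 largest there, and the dashed line marks equal differences. Points follow the line (0.893 across genes), with Lgr5 above it (1.27 against 0.36) and Clca1 below it (-3.87 against -1.84).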

How the data were processed

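Gene expression was measured on Affymetrix mouse arrays. The deposited values are log2 signals from RMA, per the submitters' processing notes; software, version and settings of RMA: not given in the sources used here. The platform annotation names a single symbol for 28898 of the 45141 probe sets, more than 1 for 551 and no symbol for 15588; a further 104 are controls. RefSeq held the Entrez ID of 28689 of the single-symbol probe sets and changed 0 symbols. Each of the 17097 symbols was represented by its brightest probe set (judged by the mean of all 12 arrays), a choice needed for 7180 of them. The 12595 genes with at least 3 arrays above 4.4, the 40th percentile of the whole table, were tested.

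Models were fitted in R 4.3.3 with limma 3.58.1 to all 12 arrays: a mean for every group, a fixed term for the mouse, an intensity trend and 2-sided tests (6 residual degrees of freedom; median standard error 0.102, or 0.127 without the mouse term). The pairing comes from the mouse numbers in the titles. Once group means were removed, correlations across genes were 0.349 to 0.694 within a mouse (18 pairs) and -0.465 to 0.152 between arrays that differ in both mouse and group (36 pairs). Replicates are mice.

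The comparison, the 36 gene lists (947 genes, 849 on the array, 728 tested) and the rule for named genes were chosen with earlier results of these data known. Lists are described by counts and medians and were not tested. The text names Mex3a and Lgr5; the 15 called genes with the largest rise and the 15 with the largest fall whose sign held in 3 mice (clones and gene models passed over); up to 4 members of a list, by smallest p; and members picked for their role after their values were seen. In simulations that changed 200 of 12595 genes, the test of the Mex3a difference found 52.2% of the changes of 0.5 log2 units, 95.5% of those of 1 and 100% of those of 2, with 8 false calls; the interaction test found 23.9%, 83.6% and 100%, with 6 false calls. Alternatives were no mouse term, the mouse as a random effect, the 6 arrays alone, other filters, further quantile normalisation, median centring, other probe set choices, no trend, array weights, and each mouse or array left out. Promoter letters were searched in Python 3.11.15 with pandas 2.3.3; figures were drawn with matplotlib 3.10.9.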

Additional observations from a re-analysis of the deposited data

How the results depend on the processing

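Without the mouse as a replicate block, 2125 genes were called in place of 4021 (69.5% of them lower, against 66.0%), all of which were also called with it; with every probe set tested on its own 6113 probe sets were called (64.5% lower). The share of lower calls was 63.9% with no filter, 68.7% with the filter at the 60th percentile, 52.6% after quantile normalisation and 72.5% after median centring, which shift the median difference of all genes to 0.006 and -0.061 in the last 2 cases. Leaving out 1 mouse or 1 array gave 2429 to 4052 called genes, 63.7% to 70.3% of them lower, and 0 to 3 genes called for the interaction, against 0 with all arrays. The fits without a mouse have fewer arrays; other causes of these shifts were not tested. Of 6079 values of 239 named genes under alternatives, 4 reversed the sign of a gene called in the main fit. Each was on another probe set of the gene that was not called itself: Wdr12 (0.11), Itgav (0.18), Egfl7 (0.19) and Abcc5 (-0.04). A further 268 values lost their call. Sign changes where neither value was called, such as Top2a (0.13, but -0.10 on another probe set), were not counted. The array does not give detection calls, so low signals limit what can be said of levels near 4.4, and 3 arrays per group limit differences under 1 log2 unit.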
